A study of Rattus norvegicus with 4 samples.

Results

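The microRNAs (miRNAs) miR-10a-5p and miR-10b-5p are the products of the Mir10a and Mir10b genes, which lie inside Hox gene clusters. They were followed here in small RNA libraries of rat vascular smooth muscle cells. The members were the sequenced tags (distinct read sequences) whose first 18 bases equal those of either miRNA. These were 645 tags of miR-10a-5p and 407 tags of miR-10b-5p, 1052 of the 2397853 distinct tags in all, with 1046915 of 56420015 reads. They stand for 2 of the 693 mature miRNA names in the RefSeq rat table. The cells came from the aorta of Sprague-Dawley rats, were grown in M199 medium with 10% FBS, were deprived of serum for 48 h in every group, and were then left without angiotensin II (Ang II) or given 100 nM Ang II. The 4 libraries, 1 a group, are the untreated control and Ang II for 1 h, 3 h or 24 h. Ang II is the peptide of the renin-angiotensin system that contracts vascular smooth muscle. No library has a replicate and the control has no time of its own, so the agent and the time in culture cannot be told apart, and no test between conditions was made.

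miRNAs are cut from a hairpin in the primary transcript. Drosha makes the cut that sets the 5′ end of the 5p arm, and Dicer makes the cut that sets its 3′ end. Bases 2 to 8 of the product, the seed, pair with target mRNAs, so that a product starting 1 base earlier or later carries another seed. The miR-10 miRNAs are an old family, known to repress several Hox mRNAs, whose proteins set position along the body axis, and miR-10a has been studied in the differentiation of smooth muscle and in inflamed endothelium. In the RefSeq gene table of rat (assembly GRCr8, used for names alone) Mir10a lies between Hoxb5 and Hoxb4, and Mir10b lies within the span of Hoxd4, beside Hoxd8.

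Both hairpins are printed because the starts and ends of the reads are described against them. The sequences are from RefSeq (GRCr8), with the 5p and 3p arms in capitals and the 5p arm of miR-10b taken from the start it shares with miR-10a.
Mir10a hairpin: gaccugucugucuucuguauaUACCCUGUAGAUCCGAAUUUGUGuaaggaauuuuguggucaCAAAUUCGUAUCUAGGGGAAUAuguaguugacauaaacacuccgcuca
Mir10b hairpin: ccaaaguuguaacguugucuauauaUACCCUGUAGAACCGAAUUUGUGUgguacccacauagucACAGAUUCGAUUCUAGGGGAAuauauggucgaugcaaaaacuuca
The mature 5p sequences follow with the seed in capitals, and with them the entry that RefSeq lists for miR-10b-5p.
miR-10a-5p: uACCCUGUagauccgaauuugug
miR-10b-5p, start shared with miR-10a-5p: uACCCUGUagaaccgaauuugugu
miR-10b-5p, RefSeq entry: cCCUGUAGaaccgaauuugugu
From the shared start, miR-10a-5p and miR-10b-5p differ at 1 of 23 bases, U12A, with positions counted from 1 at the 5′ end and the base of miR-10a-5p first. Their seeds are identical, and base 12 alone assigns a read to either.

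The RefSeq entry of miR-10b-5p starts 2 bases further in and would carry the seed CCUGUAG. Tags with that start held 44 reads in the control and, with Ang II, 42 at 1 h, 14 at 3 h and 12 at 24 h. Tags with the shared start held 91125, 65293, 64154 and 68897 reads in the same libraries. The shared start was therefore counted as miR-10b-5p throughout, and the listed start is treated below as a minor form.

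The libraries held 13119417 to 14534892 reads that name a sequence. Reads matched to RefSeq miRNAs made up 69.1% of the control library and 73.3%, 74.9% and 72.4% of the libraries at 1 h, 3 h and 24 h of Ang II. The labelled cell type was checked with marker miRNAs. The smooth muscle pair miR-143-3p and miR-145-5p summed to 250472 reads per 1000000 reads (RPM) in the control and to between 305240 and 312175 RPM with Ang II. Nearly all of this sum was miR-143-3p, with 248197 RPM in the control against 2275 RPM of miR-145-5p, which was lowest at 3 h (2216 RPM). The summed markers of endothelium lay between 105 and 125 RPM, those of striated muscle between 99.8 and 124 RPM, those of neural cells between 31.6 and 43.8 RPM, those of epithelium between 3.55 and 6.40 RPM, those of blood and immune cells between 0.457 and 0.757 RPM and that of liver between 0.0688 and 0.229 RPM. The RefSeq table held 4 of 5 listed blood and immune markers, 3 of 5 of epithelium and 1 of 2 of neural cells, and the sums cover those alone. Of the blood and immune list, 2 of 4 markers in the table had 0 reads in every library. The share of miRNA reads and the smooth muscle sum were lowest in the control, the library in which both miR-10 miRNAs were highest, and their part in the values below was not tested.

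Both miR-10 miRNAs were abundant, and both stood lower in each Ang II library than in the control. RPM here are scaled to the deposited reads that name a sequence, with exact 95% Poisson intervals. Intervals throughout cover counting error alone, and copies made by PCR are not separate molecules. The control library held 16332 RPM of miR-10a-5p (16267 to 16399), the 1 h library 13210 (13148 to 13273), the 3 h library 12974 (12915 to 13033) and the 24 h library 11185 (11131 to 11240). It was the 8th most read miRNA of the control and the 9th at each time with Ang II. The 4 levels were in the order control, 1 h, 3 h, 24 h, and on this scale no neighbouring intervals overlapped. The step from 3 h to 24 h was smaller on the other scales used below.

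Of miR-10b-5p the control library held 6330 RPM (6289 to 6371), the 1 h library 4977 (4939 to 5015), the 3 h library 4464 (4430 to 4499) and the 24 h library 4740 (4705 to 4776). Its rank was 14 in control cells, 16 after 1 h, 17 after 3 h and 15 after 24 h. Its lowest library was the one at 3 h, and that of miR-10a-5p was the one at 24 h. Counting error says nothing of how far a second culture would differ.

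**Figure D1:**
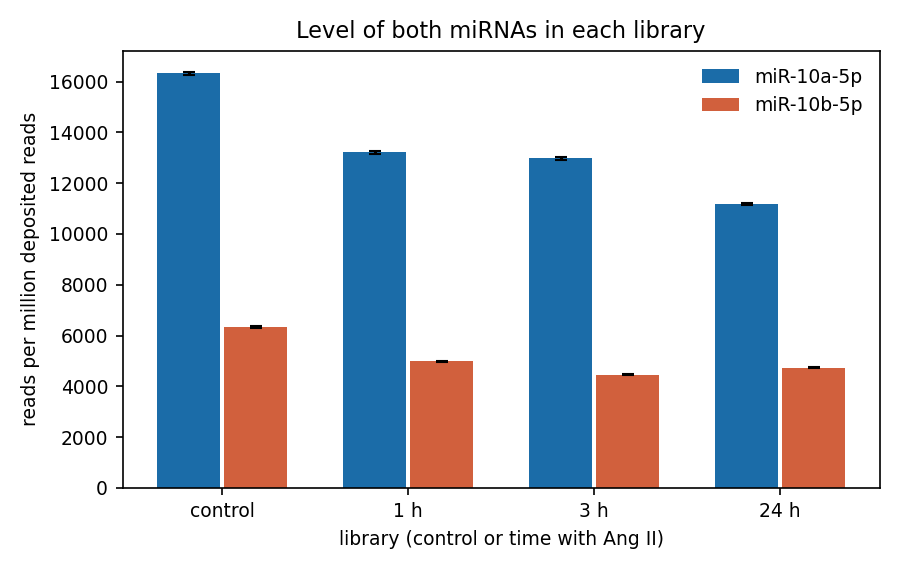
Reads per 1000000 reads (RPM, y axis) of miR-10a-5p and miR-10b-5p in the control library and at 1 h, 3 h and 24 h of Ang II (x axis), 1 library each. Bars are the levels and the small error bars exact 95% Poisson intervals for counting error. miR-10a-5p goes from 16332 in the control to 11185 at 24 h, and miR-10b-5p from 6330 to 4464 at 3 h and 4740 at 24 h.

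Against the control, miR-10a-5p stood at 0.809 times at 1 h (exact 95% conditional binomial interval 0.804 to 0.814), at 0.794 times at 3 h (0.790 to 0.799) and at 0.685 times at 24 h (0.681 to 0.689). miR-10b-5p stood at 0.786 times at 1 h (0.778 to 0.794), at 0.705 times at 3 h (0.698 to 0.712) and at 0.749 times at 24 h (0.741 to 0.756). A miRNA was called lower or higher here if its log2 ratio of (RPM + 1) passed 1.5-fold and the library with more of it had 100 reads or more. By that rule 0 of the 2 members were called lower at any time. Among all miRNAs with 100 reads, those called lower were 2.29% of 175 after 1 h, 3.95% of 177 after 3 h and 16.2% of 179 after 24 h.

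The value closest to the limit was that of miR-10a-5p at 24 h, with a log2 ratio of -0.55. Scaled to the reads matched to RefSeq miRNAs instead, its log2 ratio was -0.61 and it was called lower, as were 22.9% of all miRNAs at 24 h. On that scale miR-10b-5p at 3 h was also called lower, with a log2 ratio of -0.62 in place of -0.50, among 8.47% of all; at 1 h neither member was, and 5.14% of all were. With TMM factors, which balance the bulk of the miRNAs between libraries, the log2 ratios were -0.22, -0.27 and -0.29 for miR-10a-5p and -0.26, -0.45 and -0.16 for miR-10b-5p at the 3 times. With them 0 of the 2 members were called, against 1.71%, 3.95% and 6.15% of all miRNAs, and with median-of-ratios factors again 0, against 1.71%, 3.95% and 6.7%. Both were thus below the control at every time under the scalings tried, while the size at 24 h depended on the scale.

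**Figure D2:**
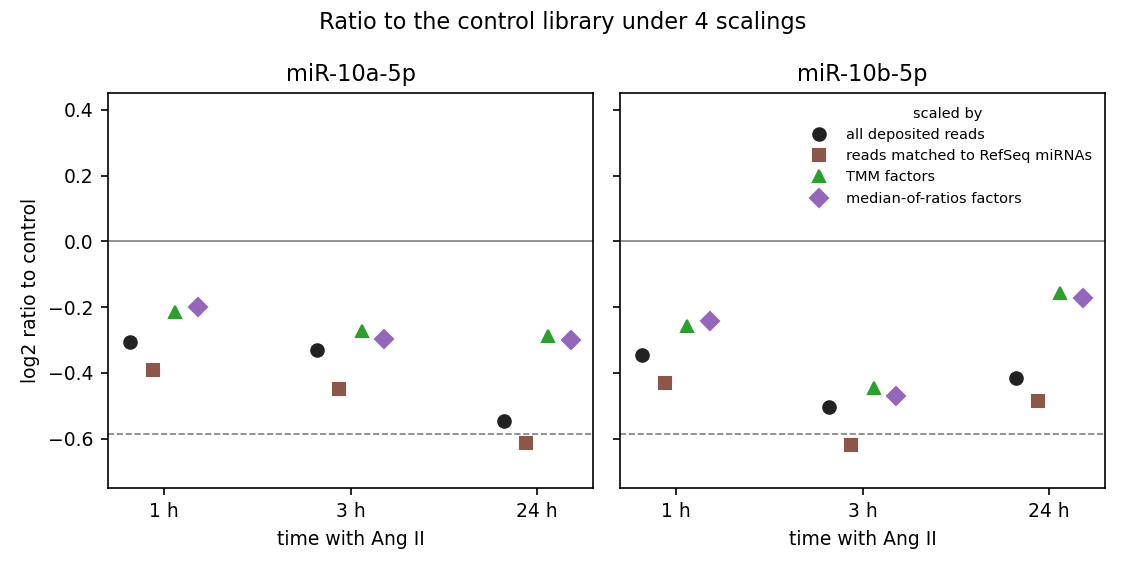
The log2 ratio to the control (y axis) of miR-10a-5p (left) and miR-10b-5p (right) at each time with Ang II (x axis), with 1 marker for each of 4 scalings. The dashed line marks 1.5-fold lower. All points lie below 0, between -0.62 for miR-10b-5p at 3 h and -0.16 for miR-10b-5p at 24 h.

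Many other miRNAs were below the control too, so the members were placed among them. The median log2 ratio of all miRNAs with 100 reads was -0.09 after 1 h, -0.05 after 3 h and -0.25 after 24 h. At 1 h 38 of 175 miRNAs had a lower ratio than miR-10a-5p, and 32 a lower one than miR-10b-5p. At 3 h these numbers were 30 and 12 of 177, and at 24 h 36 and 57 of 179. miR-10b-5p at 3 h was thus the member furthest down the ranking of ratios.

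**Figure D3:**
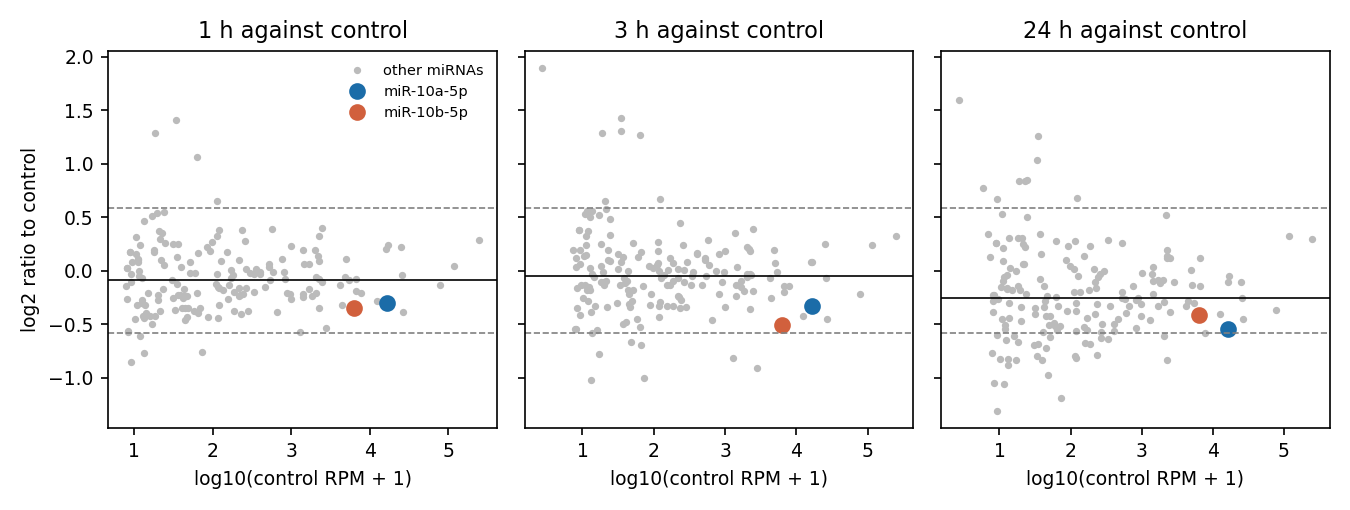
Each point is 1 miRNA with at least 100 reads in either library, with its level in the control as log10(RPM + 1) on the x axis and its log2 ratio to the control on the y axis, for 1 h, 3 h and 24 h. Dashed lines mark 1.5-fold and the solid line the median of all miRNAs (-0.09, -0.05 and -0.25); both miR-10 miRNAs lie below the median at each time.

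The balance between the products of both genes was read within each library, where the scale between libraries has no part. miR-10a-5p made up 72.1% of the reads of both in the control (exact binomial 95% interval 71.9 to 72.2), 72.6% at 1 h (72.5 to 72.8), 74.4% at 3 h (74.2 to 74.6) and 70.2% at 24 h (70.0 to 70.4). There were 2.58 reads of miR-10a-5p for each of miR-10b-5p in the control, 2.65 after 1 h, 2.91 after 3 h and 2.36 after 24 h. The share was highest at 3 h and lowest at 24 h, on either side of the control. Between 3 h and 24 h miR-10a-5p went to 0.862 times (0.856 to 0.868) and miR-10b-5p to 1.06 times its level (1.05 to 1.07), a log2 difference of -0.30 (-0.32 to -0.28 by a normal approximation to counting error). With TMM factors miR-10a-5p at 24 h stood at 0.991 times its 3 h level and miR-10b-5p at 1.22 times, so the parting is the same and its split between the members is not. With median-of-ratios factors miR-10a-5p stood at 0.998 times its 3 h level (0.992 to 1.005), an interval that includes 1. The levels of miR-10b-5p at 1 h and 24 h change order with the scale, the ratio of 24 h to 1 h being 0.952 in RPM and 1.07 with TMM factors.

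The members differed at their 3′ ends. Tags are given as the deposited reads write them, with T for U and the seed in capitals. The forms that hold most reads of miR-10a-5p end at base 22 or 23, and miR-10b-5p is mostly of 1 form that ends at base 22.
miR-10a-5p ending at base 22: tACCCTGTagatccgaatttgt
miR-10a-5p ending at base 23: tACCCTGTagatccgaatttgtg
miR-10b-5p ending at base 22: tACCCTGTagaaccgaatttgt
The first held 154885 reads in the control and, with Ang II, 109743 after 1 h, 117631 after 3 h and 108101 after 24 h. The second held 58231, 47561, 51076 and 38382 reads, and the third 77750, 55333, 54327 and 58803. The 23 base form of miR-10a-5p, which is the one RefSeq lists, was thus not its most read form in any library.

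As shares of the reads of the miRNA, the form ending at base 22 made up 65.9% of miR-10a-5p in control cells (65.7 to 66.1), 63.3% after 1 h (63.1 to 63.5), 63.1% after 3 h (62.9 to 63.3) and 66.5% after 24 h (66.3 to 66.7). The form ending at base 23 went the other way, with 24.8% in the control and, with Ang II, 27.4% at 1 h, 27.4% at 3 h and 23.6% at 24 h (23.4 to 23.8). The longer form of miR-10a-5p therefore had a larger share at 1 h and 3 h than in the control or at 24 h, by amounts beyond counting error. In miR-10b-5p the form ending at base 22 held 85.3%, 84.7%, 84.7% and 85.3%, and the form ending at base 23 held 7.34%, 7.69%, 7.41% and 7.06% in the same order. These shares of miR-10b-5p moved by less than 1 point, from a lower share at base 23 than in miR-10a-5p. The form of miR-10b-5p ending at base 24 held 1.15% in the control (1.08 to 1.22), 1.30% at 1 h, 1.44% at 3 h (1.35 to 1.53) and 1.16% at 24 h. In miR-10a-5p the form ending at base 24 held 1.90%, 1.85%, 1.87% and 1.63%. The longer form with a larger share at 3 h than in the control thus ended at base 23 in miR-10a-5p and at base 24 in miR-10b-5p. At base 24 of miR-10a-5p and at base 23 of miR-10b-5p the intervals of the control and 3 h overlapped. Both miRNAs have the same bases from 13 to 23. The form ending at base 21 held 3.21% of miR-10a-5p in the control and 4.11% at 24 h, against 2.87% and 3.11% for miR-10b-5p.

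**Figure D4:**
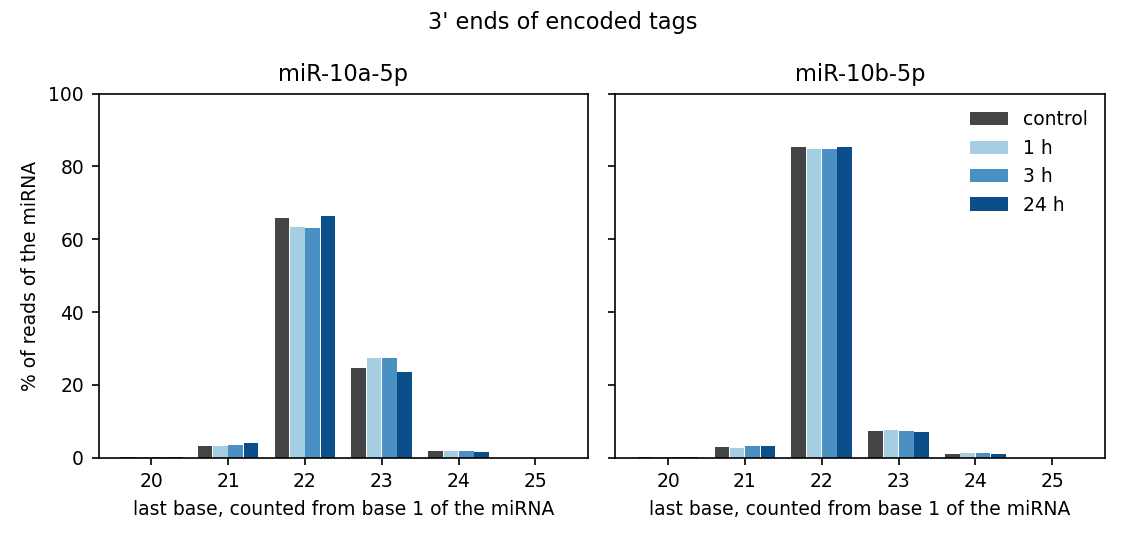
Share of the reads of each miRNA (y axis, percent) that match the hairpin throughout and end at the base shown (x axis, counted from base 1), for the control and each time with Ang II. miR-10a-5p is split between base 22 (65.9% in the control) and base 23 (24.8%), and miR-10b-5p is mostly at base 22 (85.3%).

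Most of the remaining reads ended in a base that the hairpin does not encode, or held a base that differs from it. Tags that match the hairpin throughout made up 95.9% of miR-10a-5p in the control and between 95.9% and 96.0% with Ang II, and 96.9% of miR-10b-5p in the control and between 96.8% and 96.9% with Ang II. Every member matches the first 18 bases by rule, so only later bases could differ in these shares. The most read tag with an added base had an A after base 23 in both miRNAs, capitalised here.
miR-10a-5p with an added A: taccctgtagatccgaatttgtgA
miR-10b-5p with an added A: taccctgtagaaccgaatttgtgA
The first held 4188 reads in control cells, 3257 after 1 h, 3649 after 3 h and 2754 after 24 h, and the second 607, 531, 559 and 490. This A was also set against the reads encoded up to base 23 that either end there or carry only this A after it. Of such miR-10a-5p reads, 6.71% carried the A in the control (6.51 to 6.91). With Ang II the share was 6.41% at 1 h, 6.67% at 3 h and 6.69% at 24 h. For miR-10b-5p the share was 8.32% in control cells (7.69 to 8.97), 9.57% after 1 h (8.80 to 10.37), 10.5% after 3 h (9.71 to 11.4) and 9.15% after 24 h (8.39 to 9.96). The intervals of the control and the 3 h library do not overlap for miR-10b-5p, and for miR-10a-5p they do. Over all ends the share with added A was higher at 3 h than in the control in both. It was 2.27% (2.21 to 2.34) against 2.04% (1.99 to 2.10) in miR-10a-5p. In miR-10b-5p it was 1.37% (1.28 to 1.46) against 1.09% (1.03 to 1.16). This share also depends on how many reads end at base 23, where most of the added A was seen. The form ending there held 24.8% of miR-10a-5p in the control and 27.4% at 3 h, and 7.34% and 7.41% of miR-10b-5p. A larger share over all ends is thus not by itself a larger share at a given end. After base 21, counted in the same way, an A was on 7.46% of miR-10b-5p reads in the control (6.52 to 8.49). At 3 h it was on 6.86% (5.83 to 8.01). In miR-10a-5p that share went the other way, with 5.99% in the control (5.48 to 6.54) and 6.77% at 3 h (6.19 to 7.39). The intervals overlapped in both. After base 22 an A was seen on 0.0755% of such miR-10a-5p reads in the control and a T on 0.136%. Over all ends, tags with added A made up 2.04% of miR-10a-5p reads in the control and 1.09% of miR-10b-5p reads, tags with added C 0.380% and 0.498%, and tags with added T 0.119% and 0.0911%. The shares of A and T cannot be compared, because both hairpins encode U at bases 22 and 24. A T added after base 21 or 23, where most of the added A was seen, therefore counts as encoded. A last base that differs from the hairpin can be an added or a misread one, and these reads do not tell the alternatives apart.

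The 5′ starts showed forms with other seeds, and here too the members differed. Starts from 2 bases before to 2 bases after the shared start were counted in each hairpin, and shares are of the reads at these 5 starts. For the 4 other starts with most reads, the tag with most reads over the 4 libraries is printed with its own seed, bases 2 to 8, in capitals.
miR-10a-5p, 1 base later: aCCCTGTAgatccgaatttgtg
miR-10a-5p, 1 base earlier: aTACCCTGtagatccgaatttgt
miR-10a-5p, 2 bases later: cCCTGTAGatccgaatttgtg
miR-10b-5p, 1 base later: aCCCTGTAgaaccgaatttgt
These held 43505, 3363, 353 and 2791 reads in the control. Over all ends, the start 1 base later held 69595 reads of miR-10a-5p in the control and, with Ang II, 51334 at 1 h, 55868 at 3 h and 48760 at 24 h. That is 4834, 3913, 3888 and 3355 RPM, below the level of miR-10b-5p in the same library each time. Its share was 22.4% in control cells (22.2 to 22.5), 22.4% after 1 h, 22.6% after 3 h and 22.6% after 24 h. In miR-10b-5p the start 1 base later held 9.31% in the control (9.13 to 9.49) and, with Ang II, 9.24% at 1 h, 9.71% at 3 h and 9.42% at 24 h.

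The start 1 base earlier was a form of miR-10a-5p, with 5627 reads in control cells, 4160 after 1 h, 4706 after 3 h and 3912 after 24 h, or 1.81%, 1.81%, 1.90% and 1.81%. In miR-10b-5p it held 1, 3, 1 and 3 reads, although the base before the shared start is an A in both hairpins. The start 2 bases earlier held 2 reads of miR-10a-5p in the control and 0 at each other time, where 3 counts (0.229 RPM at 1 h, 0.209 at 3 h and 0.206 at 24 h) are the limit that a count of 0 allows. For miR-10b-5p it held 0 reads in each library.

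The shift at the start went together with a shift at the end. In the control, miR-10a-5p reads that start 1 base later ended at base 23 in 62.5% of cases (62.2 to 62.9) and at base 22 in 20.9%, against 24.8% and 65.9% for reads from the shared start. Reads that start 1 base earlier ended at base 23 in 2.97%, at base 22 in 59.8% and at base 21 in 33.3%. The later form of miR-10a-5p was thus mostly 22 bases long, as was the form with the shared start. In miR-10b-5p the reads that start 1 base later were spread over base 22 with 29.8%, base 23 with 33.0% and base 24 with 28.1%. At 1 h, 3 h and 24 h the later form of miR-10a-5p ended at base 23 in 66.1%, 64.4% and 60.0%, highest at 1 h and lowest at 24 h. For reads from the shared start the share ending at base 23 was also lowest at 24 h, while its values at 1 h and 3 h did not differ beyond counting error.

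**Figure D5:**
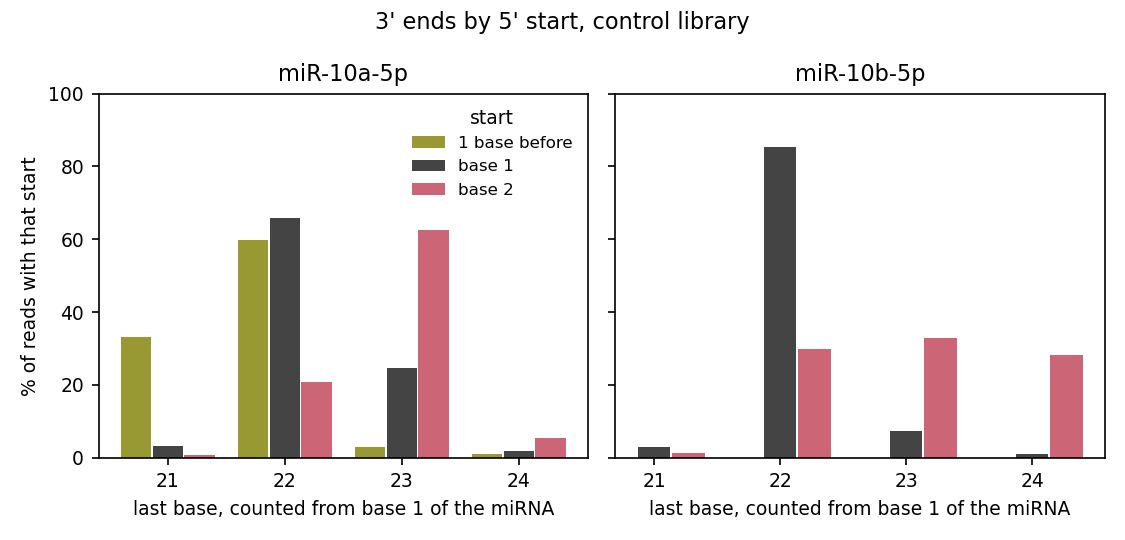
Control library. For reads with each 5′ start (1 base before base 1, base 1, or base 2), the percentage (y axis) that ends at the base on the x axis, counted from base 1, for miR-10a-5p (left) and miR-10b-5p (right, where too few reads start 1 base before). In miR-10a-5p the most frequent end is base 23 for starts at base 2 (62.5%) and base 22 for starts at base 1 (65.9%).

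Other miRNAs give the scale for these starts. Among 25 other miRNAs with 1 hairpin, a start of their own and at least 10000 reads in the control, the median share of the start 1 base later was 1.77%, and 1 had a larger share than miR-10a-5p. The same share of 22 of these with 100 reads at that start had a median log2 ratio to the control of -0.06 after 1 h, -0.23 after 3 h and -0.31 after 24 h, and was lower in 14, 21 and 21 of them. The share of the later start of miR-10a-5p had log2 ratios of -0.00042, 0.01 and 0.02, and that of miR-10b-5p had -0.01, 0.06 and 0.02. Values near 0 were not particular to them: the relative miR-100-5p, with 10.4% of its reads at this start in the control, had 0.06, 0.0056 and -0.07, and miR-140-3p, with 47.0% and named after its values were seen, had -0.03, -0.06 and 0.07. These are descriptions of the 4 libraries, with no test.

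The start 2 bases later was rare and was lower at 3 h and 24 h in both members. It held 701 reads of miR-10a-5p in the control and, with Ang II, 685 after 1 h, 375 after 3 h and 306 after 24 h, or 0.225% (0.209 to 0.243), 0.298%, 0.152% and 0.142% (0.127 to 0.159). The log2 ratios of its RPM to the control were 0.10, -0.88 and -1.17. For miR-10b-5p, where this is the RefSeq start, they were 0.05, -1.04 and -1.15 on the few reads given above. As a share of the reads of the miRNA, this start had log2 ratios of 0.41, -0.57 and -0.67 in miR-10a-5p and of 0.41, -1.15 and -1.47 in miR-10b-5p. In the 5 other miRNAs with 100 reads at such a start, its share was lower in all 5 at each time, with median log2 ratios of -0.11, -0.22 and -0.37. Among these miR-26a-5p, named after its values were seen, stood lower than miR-10a-5p at the later times, with -0.48, -0.85 and -1.25.

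The 3p arms were rare beside the 5p arms. miR-10a-3p had 121 reads in control cells, 117 after 1 h, 109 after 3 h and 99 after 24 h, and miR-10b-3p had 58, 49, 43 and 40. Against the control miR-10a-3p stood at 1.06 (0.816 to 1.38), 0.902 (0.690 to 1.18) and 0.810 (0.615 to 1.07), and miR-10b-3p at 0.927 (0.621 to 1.38), 0.743 (0.489 to 1.12) and 0.683 (0.445 to 1.04). All 6 intervals include 1 and also include the ratio of the 5p arm of the same hairpin except for miR-10a-3p at 1 h, whose lower bound of 0.816 lies just above 0.809. Counting every tag of 18 bases or more that lies exactly within a hairpin, the 5p arm of Mir10a had 1783 reads for each read of the 3p arm in the control and between 1521 and 1560 with Ang II. For Mir10b the numbers were 1470.0 in the control and between 1176 and 1530.2 with Ang II. Outside both arms there were 12 reads for Mir10a in the control and between 9 and 11 at the other times, and for Mir10b 0 in the control, at 1 h and at 3 h, and 2 at 24 h.

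Since base 12 alone separates the members, misread bases were counted as well. Tags with C or G at base 12 and otherwise the start of either miRNA held 635 reads in the control and, with Ang II, 426 at 1 h, 465 at 3 h and 510 at 24 h. In the control that is 0.270% of the miR-10a-5p reads and 0.697% of the miR-10b-5p reads. Such tags are given to neither miRNA, and a misread of T as A or of A as T at base 12 would move a read between the members unseen. Tags with 1 differing base among the first 18 together held 25348 reads in the control, 10.8% of the miR-10a-5p count, and between 9.42% and 10.5% at the other times. For miR-10b-5p they came to 10.7% in the control and between 9.92% and 10.8% with Ang II. The most frequent change was A17C in both, with 3.92% of the control count of miR-10a-5p and 3.74% of that of miR-10b-5p, and at 24 h 3.20% and 3.17%. The change G21T lies beyond the bases that were matched. It held 0.650% of miR-10a-5p reads in control cells, 0.611% after 1 h, 0.387% after 3 h and 0.539% after 24 h. Of miR-10b-5p reads it held 0.641%, 0.579%, 0.369% and 0.443%, lowest at 3 h in both. This was not particular to G21T, since G7T and G10T were also lowest at 3 h in both. G7T came to 0.293% of the miR-10a-5p count in the control and 0.220% at 3 h. For miR-10b-5p it came to 0.217% and 0.173%. The change G15T was instead lowest at 24 h in both, with 0.357% for miR-10a-5p and 0.331% for miR-10b-5p.

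Of the other miRNAs in the rat Hox clusters, the RefSeq table lists 6 arms, and 1 of them had 100 reads. miR-196b-5p, whose gene lies between Hoxa9 and Hoxa10 and which is also known to repress Hox mRNAs, had 657 reads in the control and, with Ang II, 507 at 1 h, 514 at 3 h and 560 at 24 h. Against the control it stood at 0.847 (0.753 to 0.952), 0.784 (0.697 to 0.881) and 0.844 (0.753 to 0.946) times, below 1 at each time as the miR-10 miRNAs were, but with a log2 ratio of 0.01 at 24 h with TMM factors. miR-196a-5p, from the Hoxc cluster, had 2, 1, 4 and 3 reads, and miR-615, also from the Hoxc cluster, had 1, 2, 3 and 1. The 2 arms of miR-196c and miR-196b-3p had 0 reads in each library.

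The closest relatives by sequence are miR-99a-5p, miR-99b-5p and miR-100-5p, which share most of the miR-10 sequence but carry the seed ACCCGUA.
miR-99b-5p: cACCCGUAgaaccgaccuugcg
miR-100-5p: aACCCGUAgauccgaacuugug
miR-99b-5p held 12405 RPM in control cells, 10171 after 1 h, 9276 after 3 h and 9384 after 24 h, and miR-100-5p 4398, 3511, 3681 and 3613 RPM. Their ratios to the control were 0.820, 0.748 and 0.756 for miR-99b-5p and 0.798, 0.837 and 0.822 for miR-100-5p. With TMM factors the ratios at 24 h were 0.905 for miR-99b-5p and 0.983 for miR-100-5p. miR-99a-5p was not analysed here, because the RefSeq table used has no entry for it.

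The miRNAs whose log2 ratios at the 3 times lay nearest to those of each member were found among 160 others with 100 reads in every library, by Euclidean distance. All 3 ratios share the control library. Nearest to miR-10a-5p were miR-30c-2-3p (distance 0.0706), miR-25-3p (0.0911) and miR-28-3p (0.126). Nearest to miR-10b-5p were let-7b-5p (0.0684), miR-214-3p (0.0946) and miR-99b-5p (0.105). The distance between miR-10a-5p and miR-10b-5p was 0.218, against a median distance to all others of 0.581 for miR-10a-5p and 0.654 for miR-10b-5p. The members were thus not each other's nearest miRNA over these 4 libraries.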

How the data were processed

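Per the labels' protocols, the 4 small RNA libraries were made from 0.5 ug of total RNA with 12 PCR cycles, and inserts of 17 to 52 nt were selected. The deposited files hold, for each library, raw read counts of each distinct sequence of 16 to 42 nt, not normalized. Novoalign and rn4 are named, with no role, in the submitters' processing notes; trimming and filtering are not given in the sources used here. A row that names no sequence (5.13% to 7.07% of reads) was left out.

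Tags were given to RefSeq mature miRNAs (GRCr8; 693 names, 419 hairpins) by their first 18 bases, the longest common start deciding and ties shared. The start of miR-10b-5p was aligned with that of miR-10a-5p. Ratios are log2 of (RPM + 1) over (RPM + 1), with a limit of 1.5-fold and a minimum of 100 reads. Intervals are at 95% and exact, except that of the log2 difference between the members, a normal approximation. Added bases were called against the hairpin, up to 3. With 1 library per group no test was made. The named miRNAs were the members, their arms, the other Hox cluster miRNAs, 3 relatives and the 3 nearest in pattern. The named tags were the 5 most read of each member and the most read of each other start and with an added base. Members and lists were chosen with earlier results of these data known.

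In simulated data for 1 h, 3 h and 24 h against control, 40, 40 and 39 of 40 miRNAs changed 2-fold were recovered among 126, 127 and 125, and 1 of 86, 1 of 87 and 0 of 85 unchanged were called. The simulated counts were Poisson draws from the control levels, with no variation between cultures, and 2-fold lies well past the limit of 1.5-fold. These numbers check the matching and the rule alone and do not measure how reliable a call is in the real libraries. Tools were edgeR 4.0.16 in R 4.3.3 (TMM factors alone), and scipy 1.17.1, pandas 2.3.3, numpy 2.4.6 and matplotlib 3.10.9 in Python 3.11.15. Alternatives were 3 other scalings, another pseudocount, and other choices of tags.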

Additional observations from a re-analysis of the deposited data

How the results depend on the processing

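Of 51 log2 ratios of the 2 miRNAs to the control under other settings, 50 were below 0 and 5 were past 1.5-fold lower. At 1 h, 3 h and 24 h, scaling to reads matched to RefSeq miRNAs gave -0.39, -0.45 and -0.61 for miR-10a-5p and -0.43, -0.62 and -0.49 for miR-10b-5p. TMM factors gave -0.22, -0.27 and -0.29, and -0.26, -0.45 and -0.16; median-of-ratios factors gave -0.20, -0.30 and -0.30, and -0.24, -0.47 and -0.17. The mature sequence alone (for miR-10b-5p the 24 nt form, with 1050 control reads) gave -0.16, -0.19 and -0.62 for miR-10a-5p, and -0.17, -0.18 and -0.40 for miR-10b-5p, whose lowest library is then the one at 24 h and not at 3 h. The RefSeq start of miR-10b-5p gave 0.051, -1.04 and -1.15 on 12 to 44 reads. The share of miR-10a-5p in the reads of both was 98.2%, 98.2%, 98.2% and 98.0% (control, 1 h, 3 h, 24 h) with the mature sequence alone, 75.6%, 76.1%, 77.7% and 73.9% with starts up to 2 nt away added, and 99.98%, 99.98%, 99.99% and 99.99% with the RefSeq start of miR-10b-5p. The causes were not tested. A pseudocount of 10 RPM, tags of 18 to 26 nt alone and leaving out tags read once moved no value beyond counting error. No paired analysis was possible because each group has 1 library. Depth limits the 3p arms and the rare starts, where counts are small.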
